A study of Mus musculus with 10 samples.

Results

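Genes that cell division and DNA replication depend on were described in the lactating mammary glands of QSi5 and CBA mice, with 5 mice of each strain and 1 array per mouse. QSi5 is an inbred strain selected for large litters and short intervals between them, and CBA (CBA/CaH in the methods) is the inbred comparison strain. No gene was altered in either strain, so the groups differ in their whole genomes. All 10 females had been nulliparous at mating to males of their own strain, and their inguinal glands were taken at day 9 of the first lactation and snap-frozen. By the methods females were 8 weeks old when mated. On the gland, the sources differ. It was the right one by the methods, and by the series record the fourth, taken once pups had been weaned by force at that time.

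The list held 44 genes, and a gene was measured where a probe set, the group of probes that reads 1 transcript on the array, carried that gene's symbol and no other. By this rule 42 of the 44 were measured, on 84 of the 22626 probe sets other than controls. Ccnb1, a mitotic cyclin, and Cdca8, a subunit of the chromosomal passenger complex, had no such probe set and were not analysed here. Values are deposited log2 intensities, on which a difference of 1 is 2-fold, and differences are QSi5 minus CBA. Intensities of different genes were not read as relative amounts of RNA, because probes differ in how brightly they report the same amount of RNA. The summed marker levels below add unlogged intensities over probe sets, so the brightest weigh most in them.

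A dividing cell first loads the Mcm helicase onto its replication origins, then copies its DNA with the help of the sliding clamp Pcna and a supply of deoxynucleotides, and finally separates the chromosomes on a spindle that is policed by a checkpoint and released by the anaphase-promoting complex. Transcripts of most of these genes are scarce in resting cells and accumulate in S phase or in G2 and mitosis. In the mammary gland, alveolar cells divide mainly in pregnancy and around the start of lactation, and the gland at full lactation is made up largely of secretory cells. The inguinal gland also surrounds a lymph node, in which lymphocytes can divide.

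The tissue label was checked against 13 markers of secretory alveolar epithelium, all of which were measured and passed the intensity minimum described next. Csn2, which encodes the milk protein beta-casein, had a mean log2 intensity of 13.85 in both strains, and Wap, the whey acidic protein, had 14.20 in both. Of the 13 markers, Xdh, the xanthine dehydrogenase that takes part in the release of milk fat globules, was higher in QSi5 mice (difference 0.73, adjusted p = 0.00108) and Krt8, a keratin of luminal cells, was lower (-0.83, adjusted p = 0.0161). In RNA from whole tissue, fewer cells of a type and less RNA per cell cannot be told apart, and this holds for each value below.

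Most of the division genes were dim. As in the methods, a probe set was tested if its intensity was over 20 unlogged in 1 strain or both, here with the mean of the strain taken on the log2 scale. Only 18 of the 42 measured genes passed on any probe set, which is 42.9% of them, whereas 59.4% of all 12393 measured genes did. Of the 84 probe sets 21 passed (25%), against 50.4% of all probe sets. The 24 genes below the minimum included the mitotic kinases Aurka, Aurkb, Plk1 and Bub1, the cyclins Ccna2, Ccnb2 and Ccne2, the helicase subunits Mcm2, Mcm3, Mcm4 and Mcm5, and the loading factor Cdc6. The others were Birc5, Hmgb2, Kif11, Kif20a, Kif2c, Nusap1, Prc1, Racgap1, Top2a, Tpx2, Tyms and Uhrf1. A low intensity on a probe set does not show that the transcript was absent.

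The threshold cut through a continuous range of values. Just inside it lay Ccne1, with 20.1 unlogged in the brighter strain, and Bub1b, with 20.3. Just outside lay a second probe set of Mcm7 at 19.3 and a second of Kif22 at 18.7, both genes that passed on another probe set, and the brightest probe set of Kif2c at 18.3. Since 20 unlogged had to be reached in 1 strain only, the minimum itself favours genes with a difference, and counts over the 18 genes are given as a description of these genes alone.

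**Figure D1:**
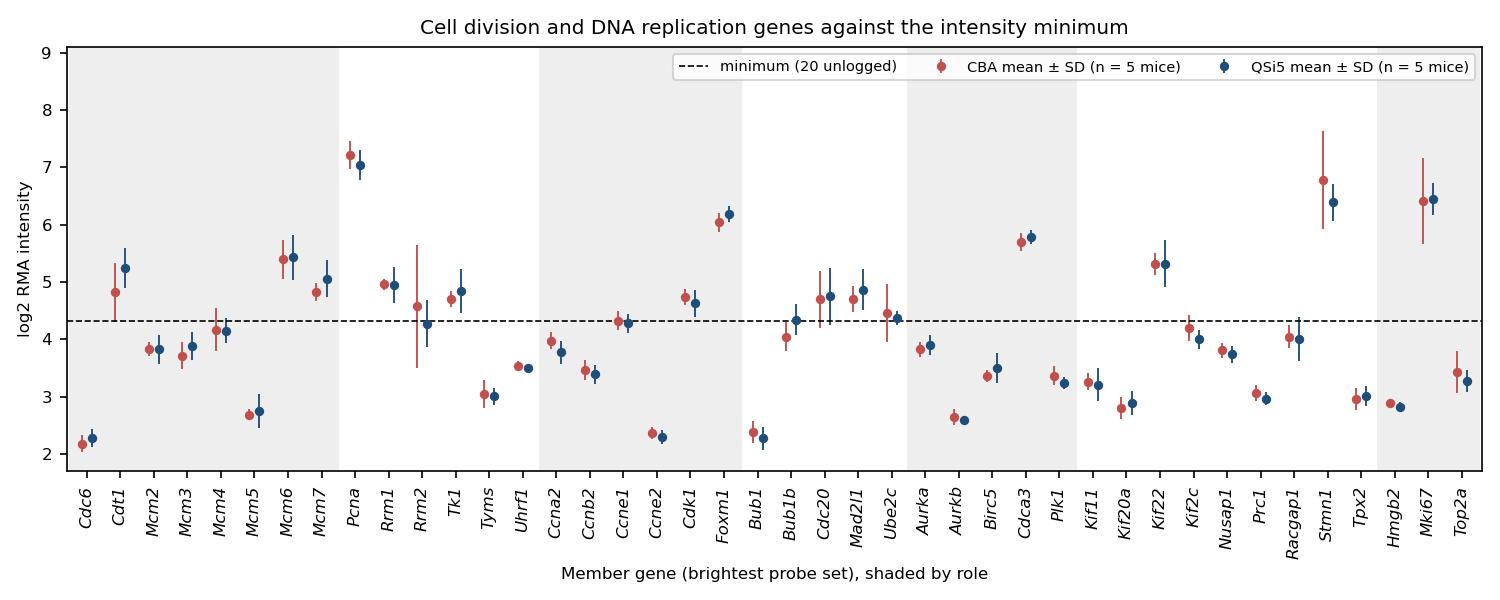
Mean log2 intensity and SD (n = 5 mice) of the 42 measured genes in CBA (red) and QSi5 mice (blue), each on its brightest probe set, with the genes in order of role and shading marking the roles. The dashed line is the minimum of 20 on the unlogged scale, above which 18 genes have at least 1 strain mean.

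None of the 18 tested genes passed the test between the strains. With limma, 0 of the 21 tested member probe sets had a Benjamini-Hochberg adjusted p under 0.05, where the background over all 11412 tested probe sets was 2.94%. At an unadjusted p under 0.05 the count was also 0 of 21, beside a background of 15.1%, and on 0 of 21 were the 5 QSi5 values separate from the 5 CBA values, beside a background of 5.14%. Adjusted p over the 18 genes, each on its brightest probe set, ran from 0.426 to 0.981. The point estimates were above 0 for 11 genes and below 0 for 7, with a median difference of 0.04 beside 0.00 for all tested genes. The median size of the difference, whatever its sign, was 0.12 beside 0.13 for all genes.

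These data limited the strain differences to different degrees. The 95% interval of limma had a median half-width of 0.37 on the log2 scale, from 0.23 at the narrowest to 0.93 at the widest. For 16 of the 18 genes the whole interval lay inside a 2-fold difference of intensity in either direction, and the exceptions were Rrm2 and Stmn1. Genes near the minimum, such as Ccne1 (20.1 unlogged in the brighter strain) and Bub1b (20.3), lie close to background. For such genes an interval of intensity need not bound the difference in RNA. The pooled SD between mice of a strain had a median of 0.29 for the 18 genes and 0.22 for all tested genes.

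**Figure D2:**
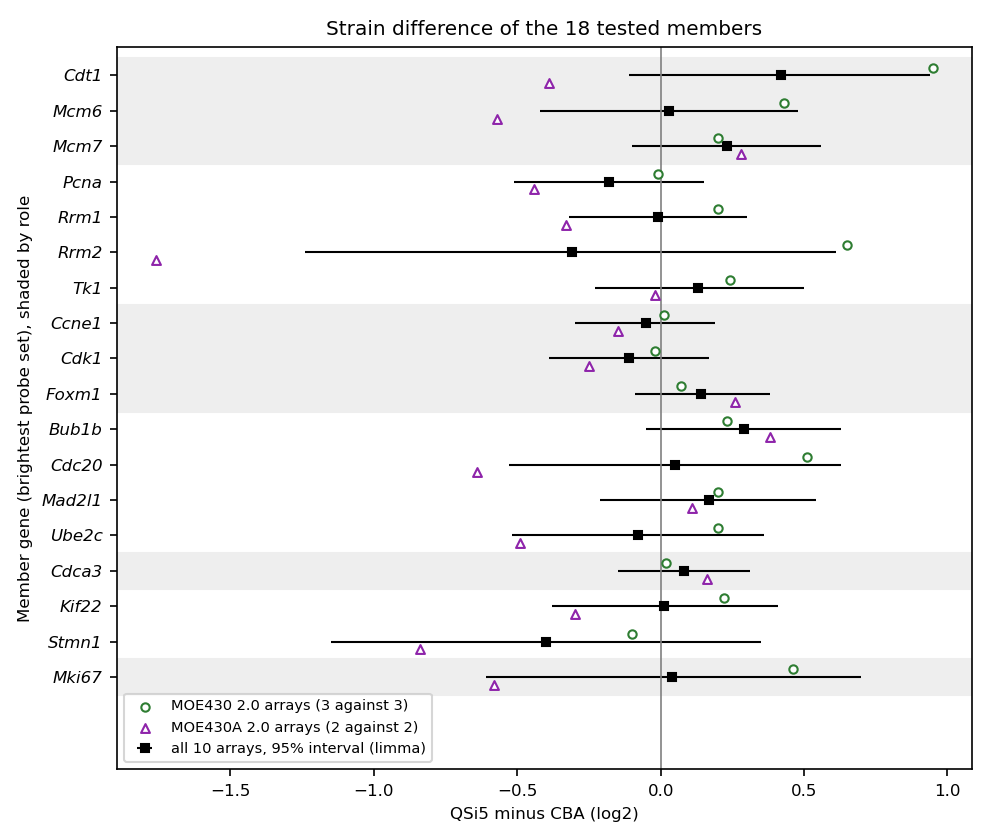
Strain difference (QSi5 minus CBA, log2) of the 18 tested genes on their brightest probe sets, with the estimate over all 10 arrays and its 95% limma interval (black), and the difference among the 3 against 3 mice on MOE430 2.0 arrays (green circles) and the 2 against 2 mice on MOE430A 2.0 arrays (purple triangles). Every interval spans 0, and for Rrm2, Cdt1, Mcm6, Cdc20 and Mki67 the circle and the triangle stand on opposite sides of 0.

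The promoters of 5 genes are shown, those with an unadjusted p under 0.05 in the strain by chip type interaction given below. The sequences are of the reference assembly and not of QSi5 or CBA mice, so they show no strain variants. Each sequence is the RefSeq window of 250 bases before to 50 bases after the transcription start on GRCm38.p6, read 5′ to 3′ on the strand of the gene. Capitals mark matches on either strand to the motifs searched. The first was CCAAT, the box bound by NF-Y, which reads ATTGG where it lies on the opposite strand. The second was the core of the cell cycle homology region (CHR), bound by the DREAM and MuvB complexes, searched as TTTGAA and, in a variant form, as TTCGAA. The others were the E2F-type 8-mers TTTGGCGC, TTTCCCGC, TTTGGCGG and TTTCCCGG.
Mki67 promoter, chr7:135716330-135716629 (minus strand): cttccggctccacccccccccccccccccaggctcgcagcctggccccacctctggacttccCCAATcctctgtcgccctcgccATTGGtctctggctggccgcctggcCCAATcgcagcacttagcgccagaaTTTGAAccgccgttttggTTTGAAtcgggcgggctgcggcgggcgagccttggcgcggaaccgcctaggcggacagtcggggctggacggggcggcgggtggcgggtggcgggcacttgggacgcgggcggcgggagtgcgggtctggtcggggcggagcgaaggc
Rrm2 promoter, chr12:24708004-24708303 (plus strand): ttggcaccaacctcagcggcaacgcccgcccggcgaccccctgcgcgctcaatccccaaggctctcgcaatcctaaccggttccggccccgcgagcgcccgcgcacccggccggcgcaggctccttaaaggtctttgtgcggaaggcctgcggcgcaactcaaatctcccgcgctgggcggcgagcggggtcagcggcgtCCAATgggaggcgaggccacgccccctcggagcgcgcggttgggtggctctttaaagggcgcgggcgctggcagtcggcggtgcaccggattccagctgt
Mcm6 promoter, chr1:128359656-128359955 (minus strand): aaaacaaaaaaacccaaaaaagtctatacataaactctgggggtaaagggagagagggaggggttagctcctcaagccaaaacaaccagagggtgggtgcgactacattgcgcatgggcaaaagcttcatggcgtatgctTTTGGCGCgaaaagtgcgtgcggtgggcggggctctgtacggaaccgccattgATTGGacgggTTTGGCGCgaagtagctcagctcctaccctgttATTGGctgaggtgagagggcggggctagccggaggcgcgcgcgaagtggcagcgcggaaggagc
Cdt1 promoter, chr8:122567765-122568064 (plus strand): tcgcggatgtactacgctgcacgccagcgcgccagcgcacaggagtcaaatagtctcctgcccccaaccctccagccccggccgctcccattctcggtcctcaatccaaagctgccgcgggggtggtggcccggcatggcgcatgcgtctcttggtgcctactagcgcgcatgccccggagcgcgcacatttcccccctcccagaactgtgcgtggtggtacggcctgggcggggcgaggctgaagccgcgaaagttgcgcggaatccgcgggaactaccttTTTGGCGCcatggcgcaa
Cdc20 promoter, chr4:118437294-118437593 (minus strand): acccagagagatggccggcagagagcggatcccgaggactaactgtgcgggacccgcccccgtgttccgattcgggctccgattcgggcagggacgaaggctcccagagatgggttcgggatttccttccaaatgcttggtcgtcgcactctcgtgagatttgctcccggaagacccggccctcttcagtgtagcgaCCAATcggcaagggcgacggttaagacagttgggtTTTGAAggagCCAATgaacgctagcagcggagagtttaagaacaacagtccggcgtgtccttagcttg

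In Mki67, with 3 CCAAT matches, and in Cdc20, with 2, the window also held TTTGAA, on which the CHR is centred. Mcm6 held 2 CCAAT and 2 TTTGGCGC matches. Rrm2 held a single CCAAT that began 50 bases before the start, and Cdt1 held a single TTTGGCGC that began 33 bases after it. Windows were found for 36 of the 44 genes, 39 windows in all. CCAAT was present in 76.9% of the 39 windows and in 37.4% of all 32851 RefSeq promoter windows of the same length. The CHR core was present in 53.8% against 19.2%, both in the same window in 51.3% against 7.52%, and an E2F-type 8-mer in 17.9% against 3.32%. These matches describe letters in the windows and are not evidence of binding in these glands.

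Among the genes that license and load the helicase, 3 of 8 were tested and 0 passed the test. Cdt1, which brings the Mcm ring to origins, had the highest difference of the 18 genes. Its log2 intensities were 4.33, 5.20, 5.51, 4.37 and 4.68 in CBA replicates 1 to 5 and 4.96, 4.98, 5.14, 5.82 and 5.28 in QSi5 replicates 1 to 5. The strains overlapped because CBA replicates 2 and 3 reached QSi5 levels, and the difference was 0.42 (SE 0.24, 95% interval -0.11 to 0.94, adjusted p = 0.469). Mcm6, a subunit of the helicase ring, had 5.19, 5.77, 5.77, 5.26 and 5.04 in CBA mice and 5.30, 5.09, 5.14, 6.03 and 5.61 in QSi5 mice. Each strain held both high and low mice, and the difference was 0.03 (SE 0.20, 95% interval -0.42 to 0.48, adjusted p = 0.966). Mcm7, another subunit of the ring, had a difference of 0.23 (SE 0.15, adjusted p = 0.527), and the highest of its 10 values, 5.51, was that of QSi5 replicate 4.

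Of the helicase genes below the minimum, Mcm2 had a probe set with 3.62, 3.62, 3.63, 3.61 and 3.40 in CBA mice and 3.92, 3.62, 3.82, 4.56 and 3.98 in QSi5 mice. The means were 3.58 and 3.98, and QSi5 replicate 4 was the highest by far. The brighter probe set of Mcm2 differed by -0.01. When the minimum was dropped and all 22626 probe sets were fitted, that probe set of Mcm2 (unadjusted p = 0.0186) and a dim one of Aurkb (0.0375) were the 2 of 84 member probe sets at an unadjusted p under 0.05, where the background was 11.2%. None of the 84 passed after adjustment. The Aurkb probe set, with means of 2.13 and 2.29, and a dim one of Tyms, with 2.24 and 2.37, were the 2 of 63 member probe sets below the minimum whose strains did not overlap, where 1.76% of all probe sets below the minimum did not. Mcm4 lay at 3.70 to 4.72 in CBA mice and 3.97 to 4.51 in QSi5 mice on its brightest probe set, Mcm3 at 3.49 to 4.05 and 3.53 to 4.14, and Mcm5 at 2.59 to 2.85 and 2.48 to 3.16.

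Among the genes of DNA synthesis and nucleotide supply 4 of 6 were tested and 0 passed. Pcna, the sliding clamp of the replicative polymerases, had 7.25, 7.05, 7.48, 7.42 and 6.91 in CBA mice and 6.92, 6.72, 6.99, 7.40 and 7.17 in QSi5 mice. Most QSi5 values lay inside the CBA range, and the difference was -0.18 (SE 0.15, 95% interval -0.51 to 0.15, adjusted p = 0.630). Rrm1, the large subunit of ribonucleotide reductase, differed by -0.01 on the brighter of its tested probe sets and by 0.05 on the other, with the 5 CBA values of the first between 4.88 and 5.10. Tk1, the thymidine kinase of S phase, differed by 0.13 (SE 0.17, adjusted p = 0.771).

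Rrm2, the small subunit of ribonucleotide reductase whose level limits the enzyme outside S phase, varied more between mice than any other of the 18 genes. Its intensities were 3.58, 5.58, 5.83, 4.32 and 3.60 in CBA mice and 3.94, 3.95, 4.09, 4.90 and 4.47 in QSi5 mice. All QSi5 values lay between the lowest and the highest CBA mouse, and the difference was -0.31 (SE 0.43, 95% interval -1.24 to 0.61, adjusted p = 0.793). A dimmer Rrm2 probe set, below the minimum, was also highest in CBA replicates 2 and 3, at 3.36 and 3.34 against 2.31 to 2.96 in the other mice. A further one did not follow, with 2.94 and 2.61 in those mice and 2.75 to 3.23 in the rest.

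Of the cyclins, Cdk1 and Foxm1, 3 of 6 measured genes were tested and 0 passed. Cdk1, the kinase that drives entry into mitosis, lay at 4.59, 4.66, 4.84, 4.92 and 4.68 in CBA mice and at 4.75, 4.25, 4.77, 4.84 and 4.54 in QSi5 mice. The difference was -0.11 (SE 0.13, adjusted p = 0.744). Ccne1, cyclin E1, which acts at the G1 to S transition, differed by -0.05 (SE 0.11, adjusted p = 0.872). Foxm1, the transcription factor of the G2 and M phase programme, differed by 0.14 (SE 0.11, adjusted p = 0.600) on its brightest probe set and by 0.05 on another.

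Among the genes of the spindle checkpoint and the anaphase-promoting complex 4 of 5 were tested and 0 passed. Bub1b, the checkpoint kinase-like protein BubR1, had the lowest unadjusted p of the 18 genes, 0.0891. It lay at 4.13, 4.05, 3.64, 4.09 and 4.34 in CBA mice and at 3.87, 4.58, 4.39, 4.49 and 4.37 in QSi5 mice. Of the QSi5 mice 4 stood above all CBA mice and replicate 1 stood below 4 of them, and the difference was 0.29 (SE 0.16, 95% interval -0.05 to 0.63, adjusted p = 0.426). Mad2l1, which holds back Cdc20 until the chromosomes are attached, differed by 0.17 (SE 0.17, adjusted p = 0.711). Cdc20, the activator of the anaphase-promoting complex, had 4.20, 5.37, 5.09, 4.42 and 4.43 in CBA mice and 4.65, 4.52, 4.52, 5.62 and 4.44 in QSi5 mice. Its 3 high mice came from both strains, and the difference was 0.05 (SE 0.27, adjusted p = 0.956). A second tested probe set of Cdc20 did not show those high mice, with 4.63, 4.02 and 4.68 in them. Ube2c, the ubiquitin-conjugating enzyme of the complex, differed by -0.08 (SE 0.20, adjusted p = 0.902).

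Of the later mitotic genes few reached the minimum. Among the mitotic kinases and chromosomal passengers 1 of 5 measured genes was tested, Cdca3, which takes part in the degradation of the mitotic inhibitor kinase Wee1 and differed by 0.08 (SE 0.10, adjusted p = 0.789). Among the spindle motors, bundlers and cytokinesis genes 2 of 9 were tested. Kif22, a kinesin that moves chromosome arms, differed by 0.01 (SE 0.18, adjusted p = 0.981). Stmn1, stathmin, which destabilises microtubules and is abundant in dividing cells, had 7.57, 7.51, 7.00, 6.28 and 5.55 in CBA mice and 6.04, 6.78, 6.15, 6.66 and 6.29 in QSi5 mice. CBA mice spanned the whole range of the QSi5 mice, and the difference of -0.40 was the lowest of the 18 genes (SE 0.34, 95% interval -1.15 to 0.35, adjusted p = 0.649).

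Mki67, the chromosome surface protein Ki-67 that is widely used to mark cycling cells, was the 1 tested gene of the 3 for chromosome structure. It had 5.24, 6.95, 7.17, 6.38 and 6.32 in CBA mice and 6.82, 6.14, 6.35, 6.30 and 6.66 in QSi5 mice. CBA replicate 1 was the lowest of all 10 mice and CBA replicates 2 and 3 the highest, and the difference was 0.04 (SE 0.30, 95% interval -0.61 to 0.70, adjusted p = 0.966). Top2a, which untangles replicated chromosomes, stayed below the minimum, at 2.96 to 3.99 in CBA mice and 3.06 to 3.58 in QSi5 mice.

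The strain difference of several genes had a different sign on each chip type, a batch that the labels record. Of each strain 3 mice were on MOE430 2.0 arrays and 2 on the smaller MOE430A 2.0, and the latter were CBA replicates 2 and 3 and QSi5 replicates 1 and 2. Among the 3 against 3 mice the median difference of the 18 genes was 0.20, and among the 2 against 2 it was -0.32. The difference had opposite signs on the chip types for 10 of the 18 genes, against 37.3% of all tested genes. The test of this contrast, a strain by chip type interaction in limma that was added after the values were seen, was passed by 0 of the 11412 probe sets after adjustment. At an unadjusted p under 0.05 it was passed by 5 of the 21 member probe sets, where the background was 5.43%, and those 5 were of Rrm2, Cdt1, Mcm6, Cdc20 and Mki67.

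The contrast was widest for Rrm2. On MOE430 2.0 arrays its difference was 0.65 and on MOE430A 2.0 arrays it was -1.76, with an interaction p of 7.4e-05 (adjusted p = 0.578). On the MOE430A 2.0 arrays alone, with 2 mice of each strain, Rrm2 was called lower in QSi5 mice (adjusted p = 0.0226), which no other setting showed. This Rrm2 probe set passed the minimum through the CBA mean only, 24 unlogged against 19.3 in QSi5 mice. That mean was raised by CBA replicates 2 and 3, the CBA mice of this fit. Neither the call nor the Rrm2 contrast is therefore independent of the minimum, and neither is taken as support for a strain difference. On the same chip types Cdt1 differed by 0.95 and -0.39, Mcm6 by 0.43 and -0.57, Cdc20 by 0.51 and -0.64 and Mki67 by 0.46 and -0.58, and for each of them the adjusted p of the interaction missed the threshold. For all 5, on these probe sets, the CBA mice on MOE430A 2.0 arrays stood above the CBA mice on MOE430 2.0 arrays. Other probe sets of the genes were divided. Dimmer ones of Rrm2 (0.35 and -0.85), Mcm6 (0.28 and -0.52) and Cdc20 (0.15 and -0.26) went the same way. A second tested one of Cdc20 (0.08 and 0.37) and dimmer ones of Rrm2 (-0.09 and 0.14) and Cdt1 (-0.04 and 0.30) did not. A further one of Cdt1 differed by 0.00 on both chip types. The Rrm2 and Cdc20 contrasts were read on probe sets with the suffix _x_at. With strain in the fit, chip type itself was called for 60 probe sets, of which 0 were of these genes. Since only replicates 2 and 3 of CBA were on the smaller chip, these mice and that chip cannot be told apart within the strain.

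**Figure D3:**
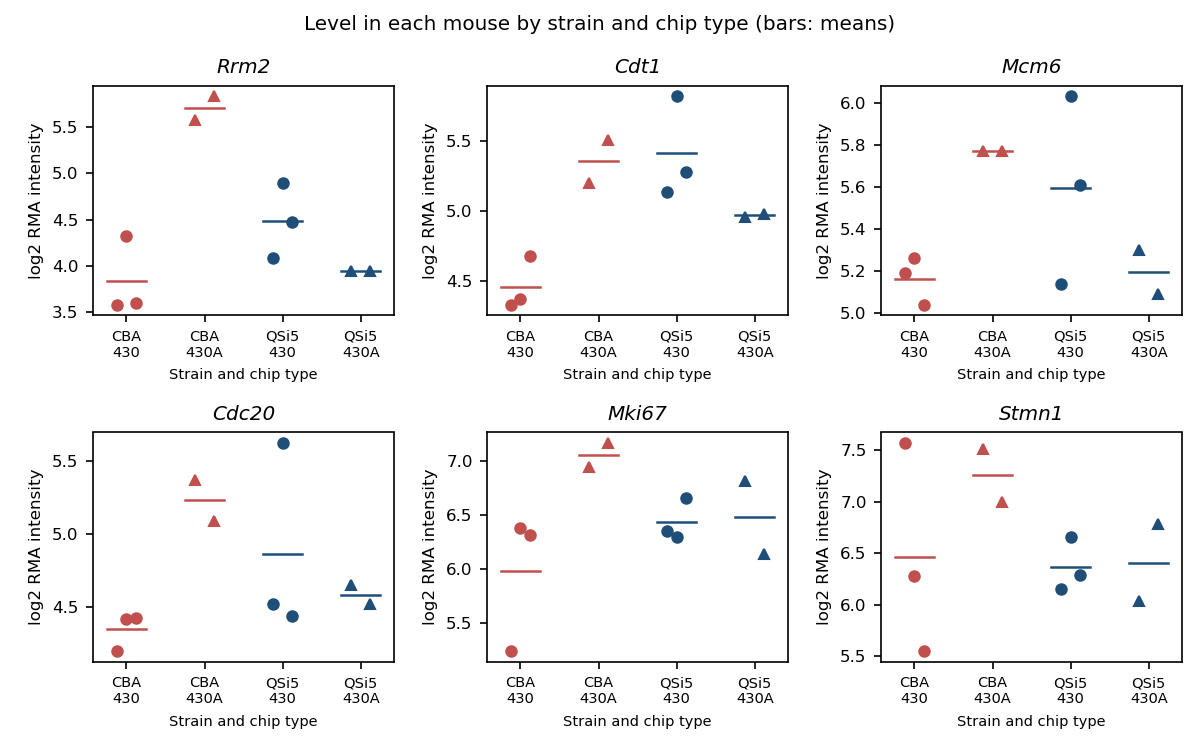
Log2 intensity of 6 genes in each mouse, by strain (red CBA, blue QSi5) and chip type (circles MOE430 2.0, triangles MOE430A 2.0), with bars at the means; each panel has its own intensity axis, which does not start at 0. In all 6 the mean of the 2 CBA mice on MOE430A 2.0 arrays lies above that of the 3 CBA mice on MOE430 2.0 arrays.

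Viewed by mouse, 1 QSi5 gland held the highest value most often. QSi5 replicate 4 held the highest of the 10 values for 7 of the 18 tested genes (38.9%), against 10.1% of all tested genes, and lay above the gene's own mean for 16 of the 18, with a median deviation of 0.32. The exceptions were Mki67, at 6.30, and Foxm1, at 6.08, which both lay below their means in this mouse. Over all 42 measured genes QSi5 replicate 4 was highest for 12, against 12.7% of all measured genes. It was above the mean for 32, with a median deviation of 0.17. CBA replicate 2 came next, highest for 8 (against 6.58% of all measured genes) and above the mean for 29, with a median deviation of 0.11. CBA replicate 1 held the lowest value for 6 of the 18 (33.3%), against 8.42% of all genes. By median deviation it was not the lowest, at -0.09 beside -0.16 in QSi5 replicate 1 and -0.14 in CBA replicate 5. Over the 42 genes QSi5 replicate 1 had the lowest median deviation, -0.15, beside -0.06 in CBA replicate 1. CBA replicates 2 and 3 each had a median deviation of 0.15. Among all tested genes CBA replicate 3 held the highest value for 19.5% and the lowest for 19%, the largest shares of any mouse.

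**Figure D4:**
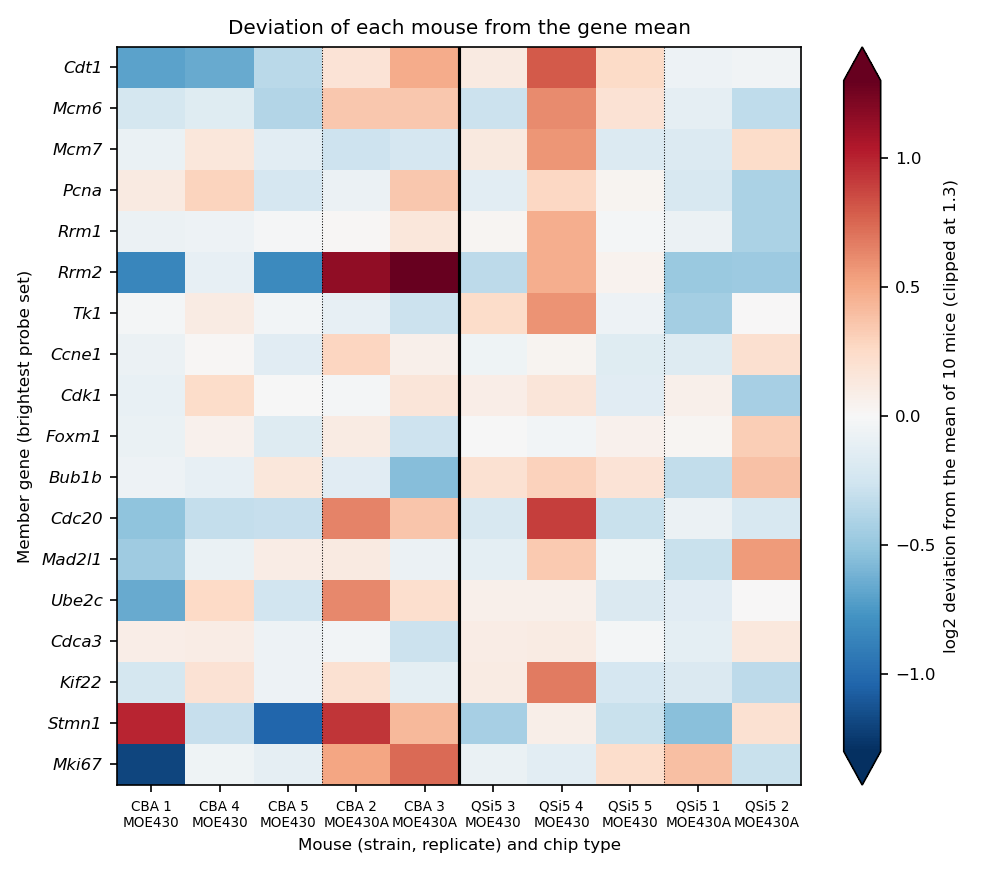
Log2 deviation of each mouse from the mean of the 10 mice for the 18 tested genes (colour, clipped at 1.3), with CBA mice left and QSi5 mice right of the solid line and chip types separated by dotted lines. QSi5 replicate 4 lies above the mean for 16 genes, all but Mki67 and Foxm1, and CBA replicates 2 and 3 are the highest mice for Rrm2 and Mki67.

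The same gland stood apart in its lymphocyte markers. Of 12 measured markers of T and B lymphocytes and plasma cells, 4 of which passed the minimum, QSi5 replicate 4 held the highest value for 10, and its median deviation was 1.73, beside -0.23 to -0.04 in the other 9 mice. Ptprc, the leukocyte surface phosphatase CD45, was 8.10 in that mouse and 3.77 to 5.56 in the others. Ms4a1, the B cell antigen CD20, was 6.39 against 2.96 to 3.46, and Cd3d, a chain of the T cell receptor complex, was 6.09 against 3.37 to 3.89. Both failed the minimum. Other markers moved less, Cd3e at 7.16 against 6.54 to 6.87 and Cd8a at 4.03 against 3.42 to 3.85. The plasma cell genes Jchain, at 8.38, and Sdc1, at 5.27, were not highest there. Over the 4 tested markers alone the median deviation of QSi5 replicate 4 was 0.22, beside -0.56 to 0.06 in the other mice. The summed unlogged level of the 12 markers ran from 356 to 1063 in CBA mice and from 606 to 1174 in QSi5 mice, and without Jchain, a plasma cell gene that was bright in all mice, from 247 to 267 and from 258 to 841.

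Myeloid markers followed another mouse. Of 12 measured, CBA replicate 3 held the highest value for 6, with a median deviation of 0.52, and S100a8, a neutrophil protein, was 8.48 there against 2.98 to 3.57 in the others. QSi5 replicate 4 was highest for 3 of the 12, Lyz2 at 8.72 among them. The summed level of the myeloid markers ran from 645 to 3154 in CBA mice and from 616 to 1068 in QSi5 mice. The highest sum was that of CBA replicate 1, in which Cd14 alone was at 11.41 on the log2 scale. Without Cd14 the sums ran from 413 to 1120 and from 414 to 886, and CBA replicate 3 was the highest. None of the leukocyte markers was listed at 0, which does not show that they were detected, and 12 of the 24 measured passed the minimum.

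Markers of myoepithelium, the contractile cells around the alveoli, were mostly lowest in the same QSi5 gland and mostly highest in CBA replicate 1. Of 10 measured, QSi5 replicate 4 held the lowest value for 7, with a median deviation of -0.69, and CBA replicate 1 the highest for 7, with 0.58. The other mice lay between -0.26 and 0.53, so CBA replicate 1 stood little above the next mouse. Over the 8 tested markers QSi5 replicate 2 was at 0.54 and CBA replicate 2 at 0.47, beside 0.65 in CBA replicate 1. For the 18 division genes CBA replicate 2 had a median deviation of 0.15 and CBA replicate 1 of -0.09. The summed level ran from 2072 to 4284 in CBA mice and from 1622 to 4031 in QSi5 mice. No marker was listed at 0, which does not show detection, and 8 of the 10 passed the minimum. Other cell types varied as well. Over 7 tested adipocyte markers the median deviation ran from -0.28 in CBA replicate 1 to 0.39 in CBA replicate 2, with 0.17 in CBA replicate 3. Over 9 of fibroblasts it ran from -0.39 in QSi5 replicate 2 to 0.45 in CBA replicate 2. For 6 of endothelium the range was -0.20 in QSi5 replicate 1 to 0.20 in CBA replicate 2. The part of any of these cell types in the levels of the division genes was not tested.

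**Figure D5:**
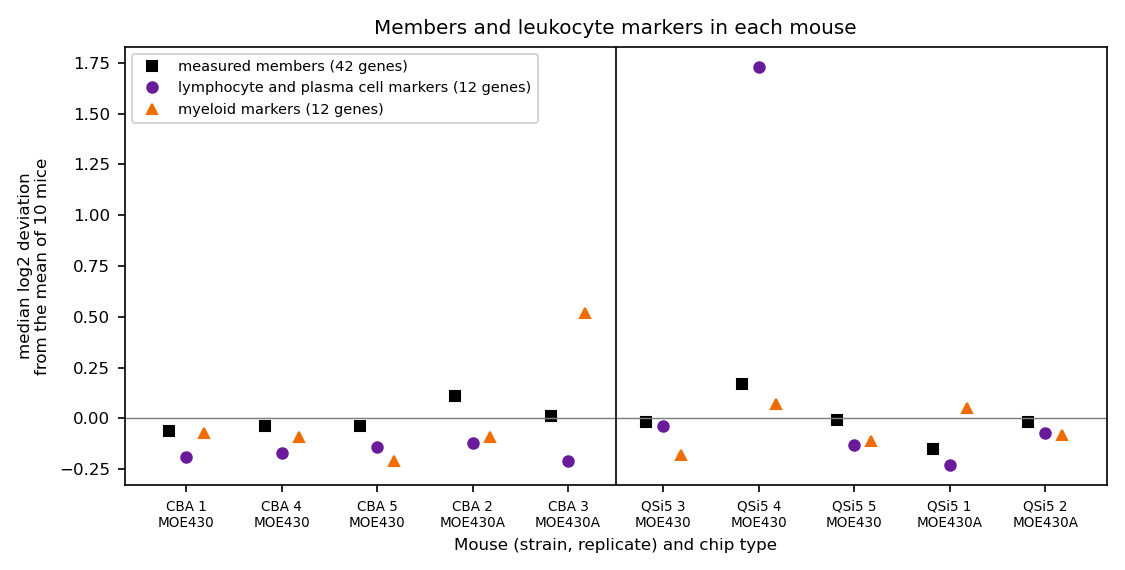
Median log2 deviation of each mouse from the mean of the 10 mice, over the 42 measured division genes (black squares), 12 markers of lymphocytes and plasma cells (purple circles) and 12 myeloid markers (orange triangles), with CBA mice left and QSi5 mice right of the line. The lymphocyte markers, 4 of which passed the minimum, stand at 1.73 in QSi5 replicate 4, where the division genes are at their highest, 0.17. The division genes are next highest in CBA replicate 2, at 0.11, where the lymphocyte markers stand at -0.12. The myeloid markers stand at 0.52 in CBA replicate 3, where the division genes are at 0.01.

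Without QSi5 replicate 4 the strain comparison still gave 0 calls among the 18 genes, and the median difference moved from 0.04 to -0.09. Cdc20 moved from 0.05 to -0.17, Mcm6 from 0.03 to -0.12, Kif22 from 0.01 to -0.15 and Cdt1 from 0.42 to 0.27, all of them uncalled with and without it. On the MOE430 2.0 arrays the median difference was 0.06 in place of 0.20. The interaction stayed at an unadjusted p under 0.05 for Rrm2 (0.000133), Cdt1 (0.00113), Cdc20 (0.00725) and Mcm6 (0.0133) and was 0.0548 for Mki67, with 4.17% of all probe sets passing at that level.

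Other genes of the same processes were taken from 5 lists with 162 genes in all, of which 138 were measured and 74 tested. Of these 0 were higher and 1 was lower in QSi5 mice (1.35%), beside 2.94% of all tested probe sets called in either direction. Anapc13, a small subunit of the anaphase-promoting complex, lay at 7.90, 8.17, 8.30, 8.39 and 8.44 in CBA mice and at 7.64, 7.42, 7.28, 7.48 and 7.70 in QSi5 mice. All QSi5 mice were below all CBA mice. The difference was -0.73 (SE 0.13, adjusted p = 0.00686), and on the MOE430 2.0 and MOE430A 2.0 arrays it was -0.75 and -0.70.

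By list, 18 genes of origin recognition, the replisome and the fork were tested, with a median difference of 0.03, and 12 of the kinetochore, centromere and centrosome, with 0.02. For condensin, cohesin and separase 10 were tested, with a median of -0.10, and for the anaphase-promoting complex and SCF 12, with 0.04. The 22 tested Cdk regulators and E2F or MuvB factors had a median of -0.05. With Anapc13, 8 of the 74 genes (10.8%) had an unadjusted p under 0.05, a smaller share than the 15.1% of all tested probe sets, and the other 7 did not pass after adjustment. They are given for completeness. Fen1, the flap endonuclease that processes Okazaki fragments, had a difference of -0.43 (adjusted p = 0.104), and Pold2, a subunit of polymerase delta, had -0.61 (adjusted p = 0.130). Cks1b, which binds Cdks and the SCF complex, had -0.60 (adjusted p = 0.175), and Ncaph, a condensin subunit, had -0.40 (adjusted p = 0.216). Anapc4, a subunit of the anaphase-promoting complex, had -0.28 (adjusted p = 0.241). On the other side of 0 lay Lig1, the DNA ligase that joins Okazaki fragments, at 0.34 (adjusted p = 0.325), and Gins4, a subunit of the GINS complex of the replisome, at 0.25 (adjusted p = 0.331).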

How the data were processed

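Mammary RNA of 5 QSi5 and 5 CBA mice was hybridised to 1 Affymetrix array per mouse. The deposited values are log2 intensities that the authors made with RMA in the affy package (background correction, quantile normalization, probe summary), with both chip types normalized together on the 22690 probe sets that they share, and versions are not given in the sources used here. The methods name MOE430A 2.0 for all mice, whereas the labels split the mice 3 and 2 per strain, and each array's chip was taken from the table that holds it. Array medians lay between 4.21 and 4.30, and no column of other samples was present (0). Strains were those of the sample labels, and the number of arrays limits the precision.

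Genes were named from the platform annotation (20380 probe sets with 1 symbol, 691 with several, 1555 unnamed). Of those with 1 symbol 20364 were matched to RefSeq by Entrez identifier, and 0 symbols were updated. Probe sets with a strain mean, taken on the log2 scale, above log2 of 20 in at least 1 strain were kept. Strains were compared by lmFit and eBayes of limma (version 3.58.1, R 4.3.3, two-sided) and adjusted by Benjamini-Hochberg over all 11412, at 0.05. A gene stood by its brightest probe set, the one with the highest mean over the arrays. Named genes were all members, with levels of the brightest, the most variable, Top2a and the Mcm genes, and called genes of the lists. The members nearest the minimum, the dim Aurkb and Tyms probe sets, per-mouse values of other members, the 7 uncalled list genes at an unadjusted p under 0.05 and the markers were chosen after their values were seen. The members and lists were chosen with earlier results of these data known. Alternatives were the minimum, chip type, replicate block, scaling, intensity trend, array weights, probe sets with the suffix _x_at or _s_at, and each mouse left out.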

Additional observations from a re-analysis of the deposited data

Results flagged for a closer look

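Among the 44 groups of 5 mice examined (each tested gene and extra probe set in each strain, with those of Anapc13), 2 held a mouse far from the rest, and chance gives about 1 in 20 such groups. Cdc20 was 5.62 in QSi5 replicate 4, beside 4.44 to 4.65 in the other 4 QSi5 mice. Foxm1 was 6.43 in QSi5 replicate 2, beside 6.08 to 6.17 in the others.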

How the results depend on the processing

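Over 22 alternatives, 0 of the tested division genes were called in any but the fit on MOE430A 2.0 arrays alone, which called 1, Rrm2. That fit rests on 2 mice of each strain, and its 2 CBA mice are those that brought the Rrm2 probe set over the minimum. The count of called probe sets over all genes, 336, was 149 on the MOE430 2.0 arrays alone and 64 on the MOE430A 2.0 arrays alone. The median difference of the division genes, 0.04, was 0.20 and -0.32 in those fits, beside a spread between mice of 0.16, and beyond the fewer mice in each fit the cause was not tested. Leaving out each mouse in turn gave 220 to 414 called probe sets, with 221 without QSi5 replicate 3 and 220 without QSi5 replicate 5, and a median difference of the division genes from -0.09 to 0.10, with 0 of them called. With a replicate block 260 probe sets and 0 division genes were called, with a median difference of 0.04. Mice with the same replicate number did not deviate together (correlations of -0.25, 0.29, -0.37, 0.06 and 0.02), so the numbers were not taken as pairs. Chip type as a block gave 413 and array weights 464 called probe sets, again with 0 division genes. Of 378 values of single division genes under the alternatives, 367 kept their side of the threshold and moved by less than the spread between mice, 10 moved by more and 1 became called. The sign turned in 35 of them, in 10 genes, all uncalled. With a minimum of 50 only 5 division genes were fitted. Setting the minimum on the mean of unlogged values, which was chosen after seeing the data, gave 336 calls among 11501 probe sets. Differences smaller than the half-width of their interval could not be called with these arrays, and larger ones could be missed as well. Fen1, at -0.43 with a 95% limma interval of -0.71 to -0.16, was not called (adjusted p = 0.104). Intensities near the minimum lie close to background.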
